A study of Mus musculus with 6 samples.

Results

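The Pellino genes Peli1, Peli2 and Peli3 were described through the histone marks around them in bone marrow-derived macrophages (BMDMs). All peaks of 4 peak lists that shared at least 1 bp with a gene body extended by 100 kb on each side were taken, on GRCm38. There were 114 such peaks, 56 of 73049 H3K4me1 peaks under LPS, 50 of 64758 H3K4me1 peaks under PBS, 8 of 4200 H3K27ac peaks under LPS and 0 of 52 H3K27ac peaks under PBS. The family was selected on LPS H3K27ac values, because the peak with the highest −log10 q of the LPS list lay upstream of Peli1. The LPS H3K27ac values are therefore given as a description, and nothing is inferred from their size.

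Pellino proteins are RING-type E3 ubiquitin ligases. A forkhead-associated (FHA) domain binds phosphorylated IRAK kinases, and Pellino proteins then attach ubiquitin chains to IRAK and other adaptors below Toll-like receptors (TLRs) and the interleukin-1 receptor. Peli1 is known from TRIF-dependent signalling of TLR3 and TLR4 through RIPK1, Peli2 from priming of the NLRP3 inflammasome, and Peli3 from signalling by NOD2 and from restraint of TRAF6 below TLR3.

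The cells were BMDMs of C57BL/6 mice, grown from bone marrow for 6 d with L929-conditioned medium and treated for 1 h with lipopolysaccharide (LPS), a TLR4 ligand, or with PBS. CUT&RUN, in which an antibody tethers a nuclease that releases the bound chromatin, was run for H3K27ac (a mark of active enhancers and promoters), H3K4me1 (a mark of enhancers, active or not) and control IgG. All groups shared the genotype and the culture, and the labels give neither the LPS dose nor the number of mice. Each treatment and antibody had 1 library, so no difference below has a replicate check and no p-value is given.

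Fragments recovered from the deposited values numbered 5660000 for LPS H3K27ac, 7210000 for PBS H3K27ac, 7010000 for LPS H3K4me1 and 6860000 for PBS H3K4me1. Counts of fragments at a summit are given with exact 95% Poisson intervals or as FPM, the fragments at the summit per 1000000 recovered fragments, and intervals cover counting error only. As a check of the cell label, 7 of 10 macrophage markers had an H3K4me1 peak within 1000 bp of a transcription start site (TSS) under LPS and 8 of 10 under PBS, beside 32.1% and 23.7% of all protein-coding genes. Of 12 markers of other cells 1, the fibroblast gene Pdgfra, had such a peak under either treatment. However, 11 of the 12 had H3K4me1 within 100 kb of the gene body, beside 80.9% of all protein-coding genes under LPS and 78.9% under PBS. LPS H3K27ac peaks lay there for 3 of the 12, beside 39.6% of all protein-coding genes. These were the T cell genes Cd4 (3 peaks) and Cd3e (2) and the liver gene Alb (1). In cultures of many cells, a mark in fewer cells and a weaker mark per cell cannot be told apart.

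The sequences at 3 of the LPS H3K27ac summits upstream of Peli1 are shown because they hold the motif matches described further on, all on the plus strand of GRCm38. Each run has 300 bases, the motif matches are in capitals, and the first run belongs to the peak with the highest −log10 q of the list.
Peli1 −45 kb, chr11:21046388-21046687: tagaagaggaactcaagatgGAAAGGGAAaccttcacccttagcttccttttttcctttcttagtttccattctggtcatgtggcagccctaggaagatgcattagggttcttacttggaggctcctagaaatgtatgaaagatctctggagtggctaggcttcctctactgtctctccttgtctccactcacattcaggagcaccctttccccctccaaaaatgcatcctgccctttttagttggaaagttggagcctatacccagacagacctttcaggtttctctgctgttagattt
Peli1 −76 kb, chr11:21014829-21015128: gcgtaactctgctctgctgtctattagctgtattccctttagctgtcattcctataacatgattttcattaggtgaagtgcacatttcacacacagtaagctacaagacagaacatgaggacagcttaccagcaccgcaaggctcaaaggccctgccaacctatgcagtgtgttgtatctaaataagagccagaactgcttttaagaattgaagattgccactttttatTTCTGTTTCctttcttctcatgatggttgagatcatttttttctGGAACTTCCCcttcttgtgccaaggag
Peli1 −8 kb, chr11:21082941-21083240: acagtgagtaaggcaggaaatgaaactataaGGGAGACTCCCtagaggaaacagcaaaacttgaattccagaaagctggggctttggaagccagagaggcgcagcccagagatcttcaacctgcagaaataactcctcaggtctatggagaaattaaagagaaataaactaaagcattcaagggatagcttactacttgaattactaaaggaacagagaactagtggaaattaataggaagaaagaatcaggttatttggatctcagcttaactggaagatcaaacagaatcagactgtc

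The 3 genes differed in what lay around them. Peli1 (ENSMUSG00000020134.13, chr11:21091291-21150323, plus strand, 59033 bp) shared its window of 259033 bp with 1 other protein-coding gene, Vps54. Peli2 (ENSMUSG00000021846.9, chr14:48120823-48281575, plus strand, 160753 bp) was alone in 360753 bp. Peli3 (ENSMUSG00000024901.15, chr19:4929717-4943127, minus strand, 13411 bp) lay among 13 other protein-coding genes in 213411 bp.

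Acetylation was found around Peli1. Under LPS the Peli1 window held 7 H3K27ac peaks covering 3096 bp, the Peli2 window 0 and the Peli3 window 1 of 338 bp, and under PBS all 3 windows held 0. Per 100 kb of window the LPS counts were 2.70 for Peli1, 0 for Peli2 and 0.469 for Peli3. No H3K27ac peak overlapped the body of a Pellino gene or came within 1000 bp of a Pellino TSS. Over all 21938 protein-coding genes, 39.6% had an LPS H3K27ac peak in the same kind of window, 0.998% had a PBS H3K27ac peak, and 6.14% had an LPS H3K27ac peak within 1000 bp of a TSS.

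**Figure D1:**
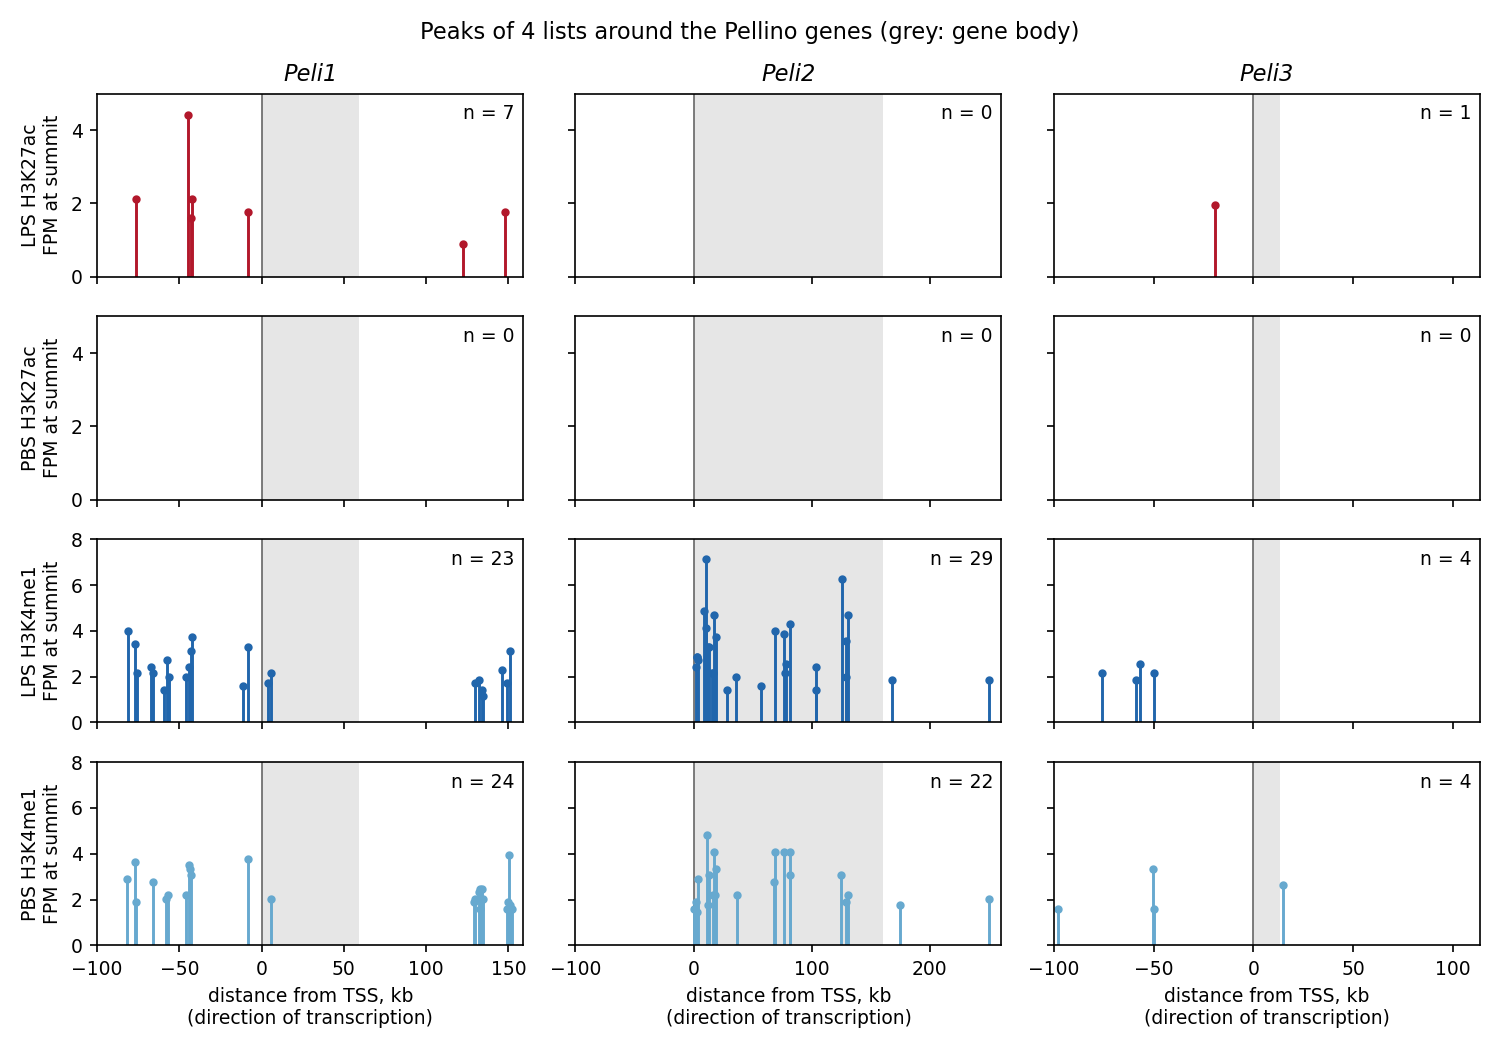
Peaks of the 4 lists (rows) around Peli1, Peli2 and Peli3 (columns), with the distance of the summit from the TSS in kb on the horizontal axis and FPM at the summit on the vertical axis. Each line is 1 peak and the grey band is the gene body. The 7 LPS H3K27ac peaks of Peli1 lie outside its body, whereas 27 of the 29 LPS H3K4me1 peaks of Peli2 lie inside its body.

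Of the 7 peaks in the Peli1 window, 5 were intergenic, lay upstream and had Peli1 as the nearest protein-coding TSS. The peak with the highest −log10 q was chr11:21045721-21047342, 1622 bp wide, with its summit 44703 bp upstream of the TSS. Its fold enrichment was 18.1 and its −log10 q 26.6, and it ranked 1 of 4200 by fold enrichment, by −log10 q and by width. At the summit it held 25 fragments (16.2 to 36.9), or 4.42 FPM (2.86 to 6.52). By fragments at the summit it ranked 12, tied with 2 other peaks, behind peaks such as the one near Paxip1 with 38 fragments. The control level at its summit was 0.440 fragments, beside a median of 0.606 over the list and a genome background of 0.357. Its place at the head of the list therefore held for fold enrichment, which divides by the control level, and for width, and not for the number of fragments. The width was 10.8 times the median of the list and 1.27 times the next widest peak, of 1275 bp.

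Close by lay 2 smaller peaks. The peak chr11:21048012-21048225 (214 bp) had 9 fragments at its summit, 1.59 FPM, and the peak chr11:21048938-21049466 (529 bp) had 12, or 2.12 FPM. With peaks up to 5000 bp apart joined, the 3 formed a cluster from 21045721 to 21049466 with 2365 bp covered. By covered length it ranked 3 of 3451 clusters, below those nearest to Ctsb (2716 bp, 8 peaks) and Cd69 (2382 bp, 6 peaks). By span, 3746 bp, it ranked 90, so that the length was packed into few, wide peaks.

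A further peak, chr11:21014746-21015049 (304 bp), lay 76312 bp upstream of Peli1 with 12 fragments at the summit, 2.12 FPM, and a fold enrichment of 6.49. The upstream peak nearest to Peli1, chr11:21083051-21083194 (144 bp), lay 8200 bp from the TSS with 10 fragments, 1.77 FPM, and a fold enrichment of 5.49. Both stood lower in the list, at ranks 745 and 1911 of 4200 by −log10 q.

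The remaining LPS H3K27ac peaks lay nearer to other genes. Downstream of Peli1, chr11:21213530-21213674 had 5 fragments (0.884 FPM), the smallest number in the list, and lay 25695 bp from the TSS of Vps54, a subunit of a complex that tethers vesicles at the Golgi. The peak chr11:21239377-21239514 lay in an intron of Vps54, 111 bp from its TSS, with 10 fragments (1.77 FPM). In the Peli3 window, chr19:4962167-4962504 lay 19325 bp upstream of Peli3 and 305 bp from the TSS of Mrpl11, a protein of the mitochondrial ribosome, in a coding exon of that gene. It had 11 fragments, 1.94 FPM, and ranked 341 of 4200 by −log10 q.

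The lack of PBS H3K27ac peaks was read against that list's own limits. The 52 PBS peaks held 8 to 18 fragments at the summit, at most 2.50 FPM. At PBS depth, the level of the peak 44703 bp upstream of Peli1 would equal 31.9 fragments. This figure rescales depth alone and takes enrichment to be equal in both libraries, which was not tested. The PBS list was sparse at macrophage genes too. Among the 10 macrophage markers, it placed H3K27ac in the window of 1, whereas the LPS list did so for 8. The absence of PBS peaks was therefore not particular to the Pellino genes. Every PBS peak had a −log10 p of 6.91 or more, a level that 7 of the 8 LPS peaks in the Pellino windows reached and 1 did not. A low level of acetylation under PBS was not detectable in lists that keep peaks above a limit. The nearest PBS H3K27ac peak lay 28039740 bp from the peak upstream of Peli1.

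The counts depend on where the windows end. With 50 kb on each side there were 5 LPS H3K27ac peaks, 4 of them in the Peli1 window, and with 200 kb there were 11, with 1 in the Peli2 window and 2 in the Peli3 window. On the left of Peli1 the first peak inside was the one 76312 bp upstream and the first outside was chr11:20915320-20915460 (fold enrichment 7.14), 75944 bp beyond the edge and nearest to Lgalsl. On the right, the first inside was the Vps54 promoter peak, 10931 bp from the edge, and the next lay 482807 bp beyond it. Outside the Peli2 window, chr14:48446163-48446305 (fold enrichment 8.68, nearest to Tmem260) lay 64626 bp beyond the right edge, and the nearest on the left lay 648610 bp away. Outside the Peli3 window, chr19:4793123-4793245 (fold enrichment 6.10, nearest to Rbm4) lay 36581 bp beyond the left edge and the nearest on the right 252123 bp beyond it. For H3K4me1, the first peaks outside lay 1846 to 9014 bp beyond the edges of the Peli1 window, 39874 to 157019 bp beyond those of Peli2 and 20386 to 214411 bp beyond those of Peli3.

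Among all protein-coding genes, 102 had more LPS H3K27ac peaks in their window than Peli1 and 62 had as many. Peli1 thus ranked 103, above 99.2% of genes, and 99.1% of the 14026 genes with a window of 0.8 to 1.25 times its size. By covered length it ranked 11, and by the highest −log10 q it ranked 1. Peli3 ranked 4044. Peli2 belonged to the 13258 genes with 0 peaks, as did 58.3% of the 2115 genes with a window of like size. The rank of 1 by −log10 q follows from the way the family was chosen. The ranks of Peli1 by number and by covered length are not independent of that choice.

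**Figure D2:**
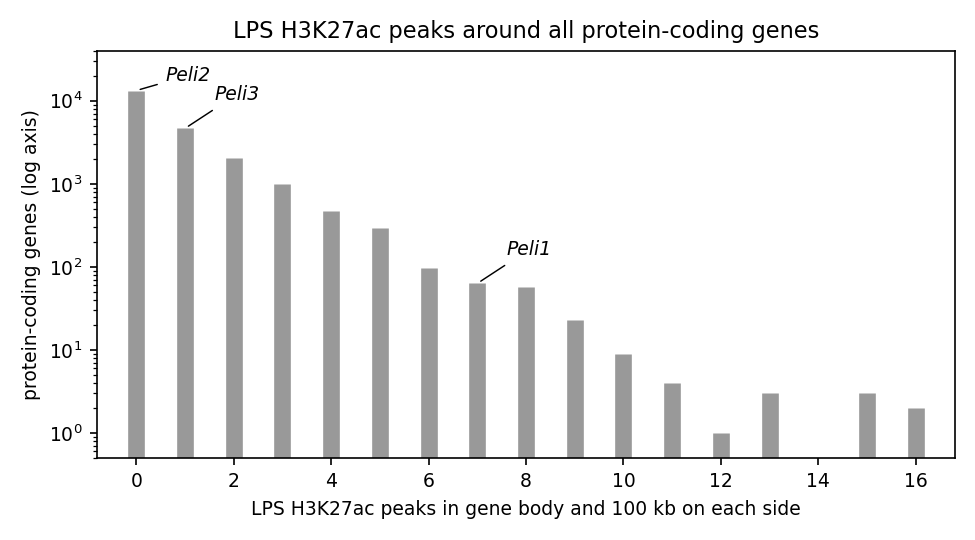
Number of protein-coding genes (vertical log axis) by the number of LPS H3K27ac peaks in the gene body and 100 kb on each side (horizontal axis). Peli2 stands with 13258 genes at 0 peaks, Peli3 at 1 and Peli1 at 7.

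The upstream H3K27ac peaks of Peli1 lay on H3K4me1 that was listed under both treatments. Of the 8 LPS H3K27ac peaks in the Pellino windows, 5 were overlapped by LPS H3K4me1 (62.5%, Wilson interval 30.6 to 86.3) and the same 5 by PBS H3K4me1. Over the whole list the shares were 33.6% and 29.9%. All 5 were the upstream peaks of Peli1, whereas both peaks on the Vps54 side and the Mrpl11 peak had none. Of the 5, 3 lay in the cluster of 3746 bp described above. The interval takes the peaks as independent and does not allow for this. The nearest H3K4me1 peak lay 30338 bp from the Mrpl11 peak under LPS and 30570 bp under PBS. The share depends on the overlap asked for: with at least 50% of the H3K27ac peak covered it was 25% for either H3K4me1 list, beside 29.1% of the list under LPS and 25.7% under PBS.

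Under the peak 44703 bp upstream of Peli1 the outline of H3K4me1 differed between the libraries. Under PBS, 1 H3K4me1 peak (chr11:21045658-21047372, 1715 bp) covered all 1622 bp of it, with a fold enrichment of 6.90 and 24 fragments at its summit, 3.50 FPM. Under LPS, the H3K4me1 peaks chr11:21045203-21045799 (14 fragments, 2.00 FPM) and chr11:21046655-21047759 (17 fragments, 2.43 FPM) together covered 767 bp of it, or 47.3%. They left a gap of 855 bp, and the H3K27ac summit fell in that gap, 67 bp from the nearer of them. The Poisson intervals of summits with 17 and 24 fragments overlap, so the levels cannot be separated at this depth.

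The summits of all 5 upstream H3K27ac peaks lay inside a PBS H3K4me1 peak, and 3 of the 5 lay inside an LPS H3K4me1 peak. Over the list, 25.9% of H3K27ac summits lay inside a PBS and 29.2% inside an LPS H3K4me1 peak. At the peak 76312 bp upstream, the H3K4me1 peaks were chr11:21014872-21015516 under LPS (15 fragments, 2.14 FPM) and chr11:21014970-21015218 under PBS (13 fragments, 1.90 FPM). The peak 21048012 to 21048225 was overlapped by chr11:21048064-21048546 under LPS (22 fragments, 3.14 FPM) and, with the third peak of the cluster, by chr11:21048007-21049130 under PBS (21 fragments, 3.06 FPM). These levels differed between the libraries by less than their counting error. The other summit outside LPS H3K4me1 was that of the peak 8200 bp upstream of Peli1. There the LPS H3K4me1 peak, chr11:21082809-21083065, had a fold enrichment of 4.35 and 3.28 FPM, and the PBS peak, chr11:21082540-21083121, a fold enrichment of 9.47 and 3.79 FPM. The summits held 23 fragments under LPS and 26 under PBS. The control level at them was 3.82 fragments under LPS and 1.07 under PBS. Fold enrichment and the called width both depend on that level. The H3K4me1 peak was 582 bp wide under PBS and 257 bp under LPS and covered 49.3% and 10.4% of the H3K27ac peak.

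**Figure D3:**
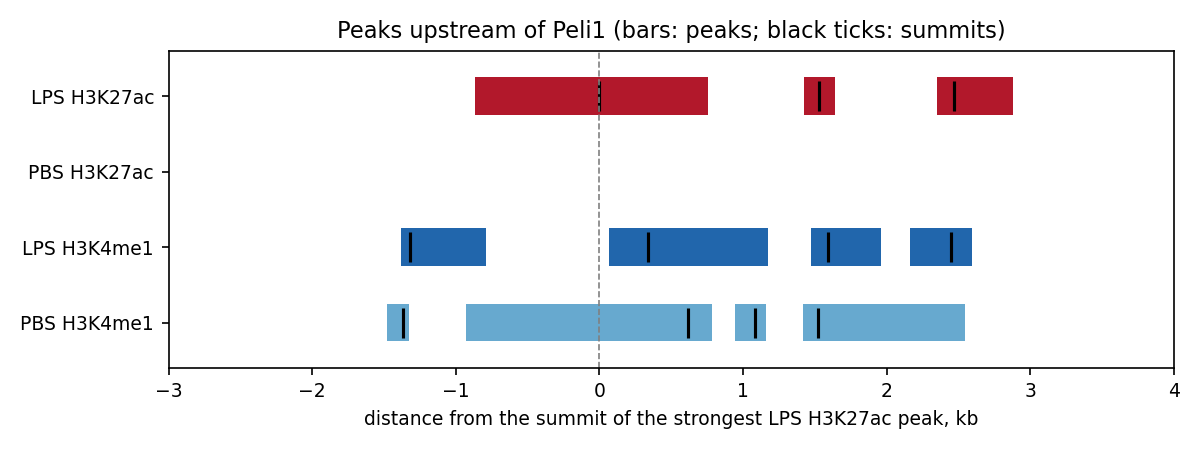
Peaks of the 4 lists around the LPS H3K27ac peak 44703 bp upstream of Peli1, with the distance from its summit in kb on the horizontal axis and 1 row per list. Bars are peaks and black ticks their summits. The PBS H3K4me1 bar spans the whole H3K27ac peak, whereas the LPS H3K4me1 bars leave a gap of 855 bp at the summit.

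H3K4me1 was present around all 3 genes. LPS and PBS counts were 23 and 24 peaks for Peli1, 29 and 22 for Peli2, and 4 and 4 for Peli3. Peaks with the member's own TSS as the nearest protein-coding TSS numbered 16 and 12 for Peli1. For Peli2 they numbered 27 and 20, and for Peli3 0 and 0. The other peaks of the Peli1 window lay nearer to Vps54, and the shares of genes below count them too. Covered length under LPS and PBS was 9494 and 10200 bp for Peli1, 14315 and 10759 bp for Peli2, and 1001 and 710 bp for Peli3. Of all protein-coding genes, 80.9% had an LPS and 78.9% a PBS H3K4me1 peak in their window, with a median of 9 and 7 peaks. Peli2 had more LPS peaks than 90.4% of genes and Peli1 more than 83.0%, whereas Peli3 had more than 31.0%. Under PBS the shares were 85.9%, 88.6% and 35.9%. The Peli2 window is the longest, and per length the order of the first pair turned, with Peli2 above 77.1% of genes and Peli1 above 80.5% under LPS. Among genes with windows of like size, Peli2 stood above 81.3% and Peli1 above 81.7% under LPS, and above 74.4% and 87.9% under PBS.

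H3K4me1 lay mostly inside Peli2 and mostly outside Peli1. In the gene body of Peli2 there were 27 of its 29 LPS peaks and 20 of its 22 PBS peaks, mostly intronic. The body of Peli1, which is shorter, held 2 of 23 under LPS and 1 of 24 under PBS, and that of Peli3 held 0. Within 1000 bp of an annotated TSS, Peli2 had 4 peaks under LPS and 3 under PBS, and Peli1 and Peli3 had 0. Over all protein-coding genes 32.1% had an LPS and 23.7% a PBS H3K4me1 peak there.

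The H3K4me1 peaks at Peli2 start sites lay beside the first TSS and at start sites inside the gene. The peak chr14:48121380-48121558, 716 bp downstream of the first TSS, was listed under PBS with 11 fragments and had no LPS counterpart. Its −log10 q of 2.02 was the smallest of the PBS list. At that limit the lack of an LPS peak does not show a difference. The site chr14:48122867-48123082 was listed under both, with 17 fragments under LPS and 13 under PBS. Near internal start sites, chr14:48197417-48197799 held 27 fragments under LPS and 28 under PBS, 3.85 and 4.08 FPM. Its fold enrichment was 3.78 under LPS and 9.38 under PBS at nearly the same number of fragments, with a control level at the summit of 5.73 fragments under LPS and 1.31 under PBS. Peaks starting at 48198294 and 48199179 were listed under LPS and not under PBS, with 15 and 18 fragments.

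The highest H3K4me1 of the family lay in the introns of Peli2. The LPS peak chr14:48131665-48132632 (968 bp), 10971 bp inside the gene, had a fold enrichment of 13.6, a −log10 q of 23.7 and 50 fragments at its summit, 7.14 FPM, and ranked 609 of 73049 by −log10 q. Under PBS, the peak chr14:48129846-48132768, which spans it, was 2923 bp wide and had 33 fragments, 4.81 FPM, at rank 1700 of 64758. The other leading peaks of Peli2 were chr14:48251213-48251927 and chr14:48246051-48246878 under LPS, with −log10 q of 21.2 and 19.9. Under PBS they were chr14:48137394-48138392 and chr14:48245963-48247029, with −log10 q of 12.2 and 11.8.

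For Peli1 the H3K4me1 peaks with the highest −log10 q were not at its own TSS. They lay in an intron of Vps54, chr11:21241373-21242680 under LPS (−log10 q 12.1) and chr11:21241322-21241870 under PBS (−log10 q 16.3). The next were upstream of Peli1, at chr11:21009664-21009920 and chr11:21048751-21049180 under LPS (−log10 q 9.49 and 8.46). Under PBS they were chr11:21047534-21047745 and chr11:21048007-21049130 (−log10 q 13.3 and 11.8), both beside the H3K27ac peak 44703 bp upstream. In the body of Peli1 an intronic site at 21096528 to 21097196 under LPS and at 21096491 to 21096818 under PBS had −log10 q of 6.51 and 5.14.

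The H3K4me1 peaks in the Peli3 window lay nearer to other genes. Its 8 H3K4me1 peaks all had another gene as the nearest TSS, among them Npas4 and Slc29a2 under LPS and Dpp3 and Brms1 under PBS. The LPS peaks had −log10 q of 2.15 to 5.91, with chr19:5018654-5018979, chr19:4992842-4993188 and chr19:4999631-4999778 the highest. Under PBS the highest were chr19:4993438-4993629 (−log10 q 10.8, 23 fragments), chr19:4928264-4928454 (5.52) and chr19:5041114-5041263 (2.79). Listed under both treatments was 1 site, chr19:4992842-4993250.

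To set the treatments side by side, H3K4me1 peaks of both lists that overlapped were joined into sites. Of 62 sites in the Pellino windows, 30 were listed under both treatments, 19 under LPS alone and 13 under PBS alone. Shared sites were 48.4% and sites under LPS alone 30.6%, beside 46.6% and 33.1% of 85699 sites in the whole lists, so that the Pellino shares were close to those of the lists. Of the PBS peaks, 37 of 50 were overlapped by LPS peaks (74%, 60.4 to 84.1), beside 73.1% of the list. Of the LPS peaks, 37 of 56 were overlapped by PBS peaks (66.1%, 53.0 to 77.1), beside 61.2% of the list. By gene, sites under both, LPS alone and PBS alone numbered 14, 7 and 7 for Peli1, 15, 9 and 3 for Peli2, and 1, 3 and 3 for Peli3. Sites listed once held 10 to 23 fragments at the summit.

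At the shared sites the ratio of LPS to PBS FPM was taken on the log2 scale. Its median was −0.15 over 14 sites of Peli1 (−0.84 to 0.45, higher under LPS at 6) and 0.10 over 15 sites of Peli2 (−0.14 to 1.11, higher under LPS at 9). The shared sites 129.8 to 150.7 kb downstream of the Peli1 TSS lay nearer to the TSS of Vps54. Their log2 ratios were −0.25, −0.33, −0.84, 0.09 and −0.33. The other shared sites of the Peli1 window, upstream of the gene or in its body, ran from −0.53 to 0.45. The 1 shared site of Peli3 had 0.42. The median of all 39917 shared sites was 0.07, and the central 95% of them lay between −0.74 and 0.86. Of the 15 sites of Peli2, 4 lay above 0.86 and 0 below −0.74, and of the 14 of Peli1, 0 lay above and 1 below.

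The 4 high sites of Peli2, chosen after their values were seen, were all intronic. At 48245963 to 48247029 the summits held 44 fragments under LPS and 21 under PBS, or 6.28 and 3.06 FPM, a log2 ratio of 1.04 with a counting SE of 0.38. At 48249095 to 48249713 they held 25 and 13 fragments, a log2 ratio of 0.91 (SE 0.49). At 48251213 to 48251927 they held 33 and 15, a log2 ratio of 1.11 (SE 0.45). These 3 sites lay within 6 kb of each other in the 3′ part of the gene, 125.7 to 130.7 kb from the TSS. The last, 48123426 to 48123818, lay 2.80 kb from the TSS with 20 and 10 fragments, a log2 ratio of 0.97 (SE 0.56). The Peli2 window held 0 H3K27ac peaks under either treatment, so none lay at these sites. Over the whole lists 1411 of 4200 LPS H3K27ac peaks overlapped LPS H3K4me1. With 85699 H3K4me1 sites in all, most sites lack an H3K27ac peak. The site of the Peli1 window below −0.74 was chr11:21225785-21226084, with 8 and 14 fragments (log2 ratio −0.84, SE 0.64). It lay nearer to the TSS of Vps54 than to that of Peli1.

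**Figure D4:**
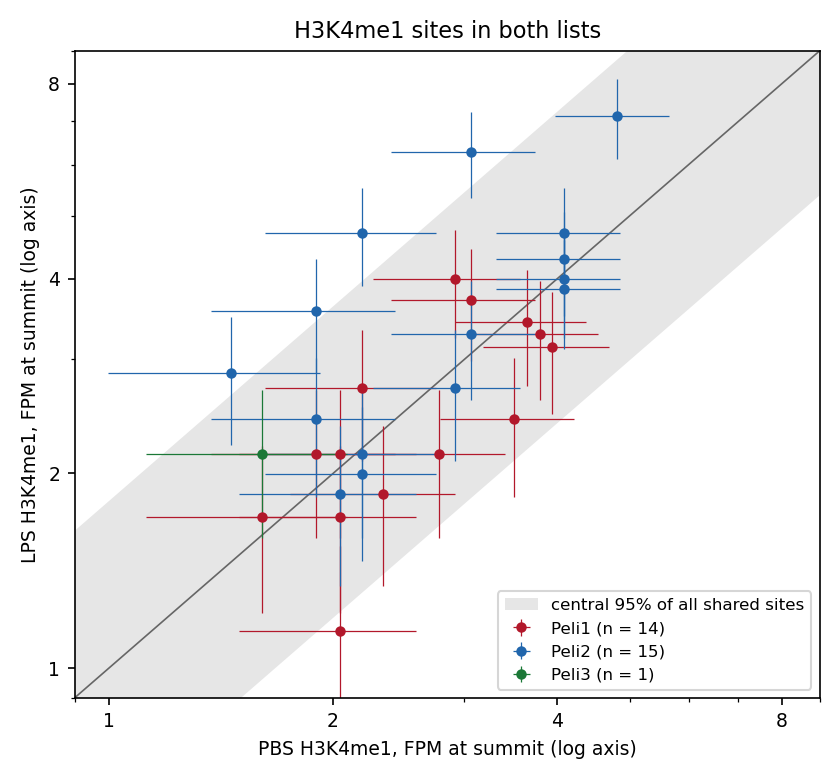
FPM at the summit of H3K4me1 sites listed under both treatments, PBS on the horizontal and LPS on the vertical log axis, for Peli1, Peli2 and Peli3. Bars are the square root of the number of fragments, scaled in the same way, and the grey band holds the central 95% of the 39917 shared sites. Of the 15 Peli2 sites, 4 lie above the band, and 1 of the 14 Peli1 sites lies below it.

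Motifs were searched on both strands from 150 bp before to 150 bp after the 8 LPS H3K27ac summits. They were the NF-kB consensus, TGANTCA (AP-1), TGACGTCA (CRE), GAGGAAGT (PU.1), TTGCNNCAA (C/EBP) and GAAANNGAA (IRF). The NF-kB consensus matched at 2 summits, those 76312 and 8200 bp upstream of Peli1, beside 7.83% of all LPS H3K27ac summits and 6.09% of PBS H3K4me1 summits. With 75 bp on either side of the summit it matched at 0 of the 8, beside 4.05% of LPS H3K27ac summits. In the −8 kb sequence shown above, 2 overlapping matches form 1 run on both strands. The IRF motif matched at 1 summit, the one 76312 bp upstream, beside 11.0% and 10.3%. The other 4 motifs matched at 0 of 8, beside 10.6% of LPS H3K27ac summits for AP-1, 4.02% for PU.1, 2.69% for C/EBP and 0.548% for CRE. A match describes letters and not a bound site.

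The 1622 bp of the peak 44703 bp upstream of Peli1 held 1 IRF match, at 21046408 to 21046416, 180 bp from the summit, and no match to the other 5 motifs. Of windows of that size around the LPS H3K27ac summits, 47.9% held an IRF match, 29.9% an NF-kB match and 43.3% an AP-1 match. At its summit 45.3% of bases were G or C and there were 0 CpG, whereas the Vps54 promoter peak had 75.7% and 40 CpG and the Mrpl11 peak 60.0% and 22 CpG. The median G and C content over the list was 48.2%. The RefSeq promoters of the family (GRCm38.p6, 300 bases each) held 20 CpG in Peli1, 38 in Peli2 and 13 and 15 in the 2 entries of Peli3, beside a median of 7 over all promoters. None of these promoters held a peak of any list or a motif match, and between 1.79% (CRE) and 8.56% (IRF) of all 32851 promoters held each motif.

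Partners of the Pellino proteins were read in the same windows. Of 31 genes of TLR and interleukin-1 receptor signalling, 20 (64.5%, median 1 peak) had an LPS H3K27ac peak, beside 39.6% (median 0) of all protein-coding genes. Of the 10 macrophage markers, 8 (80%, median 2.5 peaks) had one. A PBS H3K27ac peak was found for 0 of the 31, beside 0.998% of all protein-coding genes. LPS H3K4me1 was found for 30 and PBS H3K4me1 for all 31, beside 80.9% and 78.9% of all protein-coding genes. Among the IRAK kinases that Pellino proteins bind, Irak1, Irak2 and Irak3 had 1 H3K27ac peak each and Irak4 had 0. Ube2v1, part of the ubiquitin-conjugating pair that works with such ligases, had 4 peaks and its partner Ube2n 1. The highest −log10 q in the Ube2v1 window, 6.31, equalled that in the window of the macrophage marker Cebpb, which had 6 peaks. Peaks may therefore be shared, and Ube2v1 had 0 LPS H3K27ac peaks within 1000 bp of a TSS. Like Ube2v1, Traf3 and Rela had 4 each. None of the 31 had as many as the 7 of Peli1, of which 5 had Peli1 as the nearest protein-coding TSS. Peli1 was chosen on LPS H3K27ac values, so this order is not independent of the choice. The genes with 0 were Il1r1, Traf6, Tlr2, Bcl10, Ripk2, Map3k7, Ikbkb, Irak4, Ticam2, Chuk and Tab3. Of the 31, 8 had an LPS H3K27ac peak within 1000 bp of a TSS, beside 6.14% of all protein-coding genes.

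Of 12 other ubiquitin ligases and deubiquitinases of NF-kB signalling, 7 (58.3%, median 1 peak) had an LPS H3K27ac peak, beside 39.6% of all protein-coding genes. All 12 had H3K4me1 under both treatments, beside 80.9% of all genes under LPS and 78.9% under PBS. Tnfaip3, which encodes the deubiquitinase A20, had 7 peaks covering 2298 bp, as many peaks as Peli1, with a highest −log10 q of 11.2. Otulin, which cleaves linear ubiquitin chains, had 5 and Birc2, a ligase of RIPK1, had 4. Birc2 shares peaks with its neighbour Birc3, and Cyld with Nod2. The genes with 0 were Traf2, Rbck1, Itch, Otud7b and Sharpin.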

How the data were processed

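CUT&RUN libraries of 6 samples were grouped by treatment and antibody as the labels give them. Per the study's methods, the authors trimmed the reads, aligned them to GRCm38 with Bowtie2 2.4.4 in the nf-core pipeline, removed blacklisted regions and called peaks per library with MACS2 2.2.7.1. The control library of the calls is not given in the sources used here, and the 2 IgG libraries were not analysed here. Each deposited list gives a score (a whole number made from q, not used), the fold enrichment as a ratio over the local control at the summit, the −log10 p and −log10 q at the summit, and the summit offset in bases. The smallest −log10 q of the deposited lists corresponds to a q of 0.01.

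Members, gene lists and motifs were chosen with earlier results of these data known. Genes were those of GENCODE M21, another release than the authors used on the same build. Fragments at a summit and the control level were recovered from fold enrichment, with its pseudocount of 1, and the Poisson p, with 1 scaling factor per library fitted on the 40 commonest value pairs. Depth followed from the lowest control level found at 1% of peaks or more and the smallest peak width. The code for the recovery was tested on simulated data with known factors, which does not settle the choice among such factors. Depth was 5660000 to 7210000 fragments, and the smallest summits of the lists had 5 to 8 fragments. Smaller scaling factors return p as well, so the largest was used. This choice sets fragment counts and intervals but not FPM. Overlap meant 1 bp shared, with 95% Wilson intervals. With 1 library per group no test was run. Named were all H3K27ac peaks in the windows, the 3 H3K4me1 peaks with the highest −log10 q per window and list, those at a TSS or overlapping H3K27ac, the peaks at window edges (as ranges for H3K4me1), and list genes with the most or 0 peaks. Alternatives covered window size, threshold, merging, overlap, rank, motif window and scaling factor. Python 3.11.15, pandas 2.3.3, scipy 1.17.1 and samtools 1.23.1 were used.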

Additional observations from a re-analysis of the deposited data

How the results depend on the processing

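No paired analysis was possible because each treatment and antibody had 1 library. With 50 kb on each side, the Pellino windows held 5 LPS H3K27ac, 37 LPS H3K4me1 and 29 PBS H3K4me1 peaks, and 86.2% of the PBS H3K4me1 peaks in them were overlapped by LPS peaks. At −log10 q values of 5 or more they held 4, 33 and 30 peaks, 50% of PBS H3K4me1 peaks were overlapped by LPS peaks (67.4% of the list) and 51.5% of LPS peaks by PBS peaks (56.1%), and 35.5% of pathway genes had an LPS H3K27ac peak (17.4% of all genes). With peaks within 1000 bp merged, 33 LPS and 26 PBS H3K4me1 peaks were left. Peaks with a Pellino gene as the nearest TSS numbered 5 for LPS H3K27ac, 43 for LPS H3K4me1 and 32 for PBS H3K4me1. With at least 50% of the peak covered, the overlapped shares were 25% of the LPS H3K27ac peaks for either H3K4me1 list (29.1% and 25.7% of the list), 58% of the PBS (61.1%) and 42.9% of the LPS H3K4me1 peaks (45.7%). With 500 bp added on each side, 86% of PBS H3K4me1 peaks were overlapped (84.9% of the list). Peli1 ranked 11 by covered length and 1 by −log10 q. Within 10 kb of a TSS, 38.7% of pathway genes had an LPS H3K27ac peak (8.92% of all genes). In the shorter window, with 75 bp on either side, 0 summits held an NF-kB match (4.05% of all LPS H3K27ac summits). The next smaller scaling factor gave 50 fragments for the peak upstream of Peli1, while FPM did not change. The PBS H3K27ac count was 0 at 200 kb too, but no alternative could have raised it. The PBS H3K27ac peak nearest to a window edge lay 15949244 bp beyond that of Peli2. Of the main values, 24 moved and 26 did not. Of the values per gene, 21 moved and 51 did not. Those that did not move include the PBS H3K27ac counts of 0, which could not have risen. With 200 kb on each side the Peli2 window held 1 and the Peli3 window 2 LPS H3K27ac peaks. Counting error limits comparisons of levels, since the median H3K4me1 summit held 17 fragments.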
